A study of Mus musculus with 10 samples.

Results

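The genes examined were 9 transcription factors that direct helper T cell lineages or the effector state of regulatory T cells (Tregs): *Tbx21*, *Gata3*, *Rora*, *Prdm1*, *Eomes*, *Maf*, *Ahr*, *Bhlhe40* and *Irf4*. They were chosen by symbol as known lineage factors and are 9 of the 48321 gene symbols counted by RNA-seq. The choice was made with earlier results of these data known, so their calls set beside the share of all genes are a description. All 9 were among the 13796 genes left by the filter on low counts. The RNA came from CD4+ T cells of mouse spleen, on the C57BL/6 background, sorted by a GFP reporter that marks *Foxp3* expression and by surface CD25, the interleukin-2 receptor chain encoded by *Il2ra*. Wild-type (WT) mice gave FoxP3+CD25+ cells, which are Tregs, and FoxP3-CD25- cells, which are conventional CD4+ T cells. *Satb1* F/F:*Thpok-cre* mice, called KO here, gave the same populations and a further one, FoxP3+CD25- cells. SATB1 is a chromatin organizer of T cells, and *Thpok-cre* deletes its floxed gene only after thymocytes have committed to the CD4 lineage. Each of the 5 groups had 2 libraries, numbered 1 and 2 by genotype in their labels, and equal numbers of a genotype were read as the same mouse. The labels give no age and name no treatment.

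Helper T cells take different fates under different lineage factors: T-bet, the product of *Tbx21*, drives Th1 cells and interferon-gamma, GATA3 drives Th2 cells, and the RORs drive Th17 cells. Tregs borrow the same factors, so that Tregs at a site of inflammation can carry the factor of the helper cells they restrain. IRF4 and Blimp-1, the product of *Prdm1*, mark activated or effector Tregs, while c-MAF, AHR, BHLHE40 and EOMES tune cytokine output in both helper and regulatory cells.

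Between 6094952 and 12410064 reads per library fell on genes, and values are given as CPM, counts scaled to a fixed library total. A gene with 3 counts in a library, taken as the floor of detection, stood at 0.248 to 0.496 CPM, and this floor covers counting error only. The markers of the sort followed the labels. *Foxp3* had 618 to 739 CPM in the 4 FoxP3+CD25+ libraries, 361 and 318 CPM in the KO FoxP3+CD25- libraries and 18.0 to 38.9 CPM in the 4 FoxP3-CD25- libraries. *Il2ra* had 627 to 760 CPM in FoxP3+CD25+ and 1.55 to 16.8 CPM in the 6 CD25- libraries. *Satb1* itself, counted over all its exons, was not called lower in KO cells, and whether the deleted part was lost cannot be seen in counts per gene. Its log2 fold change was 0.40 (SE 0.15, FDR = 0.9999) in FoxP3+CD25+ cells and -0.16 (SE 0.15, FDR = 0.927) in FoxP3-CD25- cells, and its highest mean was that of KO FoxP3+CD25- cells, at 1090 ± 136 CPM (SD, n = 2), which was 1.35 above WT FoxP3+CD25+ cells (SE 0.16, FDR = 0.000298). The mouse of WT replicate 1 stood apart: its 2 libraries held 14487 and 16362 *Xist* counts and none of 4 genes of chromosome Y, whereas the other 8 libraries held 0 to 4 *Xist* counts. All 9 genes were higher in WT replicate 1 than in WT replicate 2, in FoxP3+CD25+ cells and again in FoxP3-CD25- cells. Over all genes, 51.3% and 51.8% were higher in replicate 1 in these populations. Of the KO libraries, replicate 1 was higher for 7 of the 9 genes among FoxP3+CD25+ cells (49.6% of all genes). It was higher for 8 among FoxP3+CD25- cells (48.1% of all genes) and for 4 among FoxP3-CD25- cells (49.2%). A lean of the 9 genes to replicate 1 was thus not limited to the WT mice. The median distance of the 9 genes between the WT FoxP3+CD25+ replicates was 1.02 on the log2 scale, against 0.26 over all genes. It was 0.42 against 0.19 in KO FoxP3+CD25+, 0.46 against 0.21 in KO FoxP3+CD25- and 0.16 against 0.20 in KO FoxP3-CD25- cells. Sex and the other features of the WT replicate 1 mouse cannot be told apart. The values of the 9 genes that use WT cells, and the list counts between WT populations, are therefore given with and without it.

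Per kb of transcript, taken as the union of each gene's exons, the 9 genes spanned a wide range of levels. *Gata3* was the highest of them in 4 of the 5 groups, at 26.1 to 47.9 CPM per kb over the 5 groups. In WT FoxP3+CD25+ cells *Bhlhe40* was above it, at 50.4 ± 38.3 CPM per kb (SD, n = 2) against 47.9 ± 12.7 (SD, n = 2), a distance within the spread of either gene. *Maf* followed at 9.33 to 38.0 CPM per kb and *Irf4* at 5.49 to 21.1 CPM per kb. The T-box genes formed the low end in the FoxP3+ groups. In KO FoxP3+CD25- cells *Tbx21* had 0.513 ± 0.0827 CPM per kb (SD, n = 2) and *Eomes* 0.593 ± 0.206 (SD, n = 2). In FoxP3-CD25- cells *Tbx21* reached 4.66 ± 1.55 (SD, n = 2) in WT and 8.24 ± 3.47 CPM per kb (SD, n = 2) in KO, level with *Rora* and *Bhlhe40* of the same KO cells at 7.64 and 8.89 CPM per kb.

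**Figure D1:**
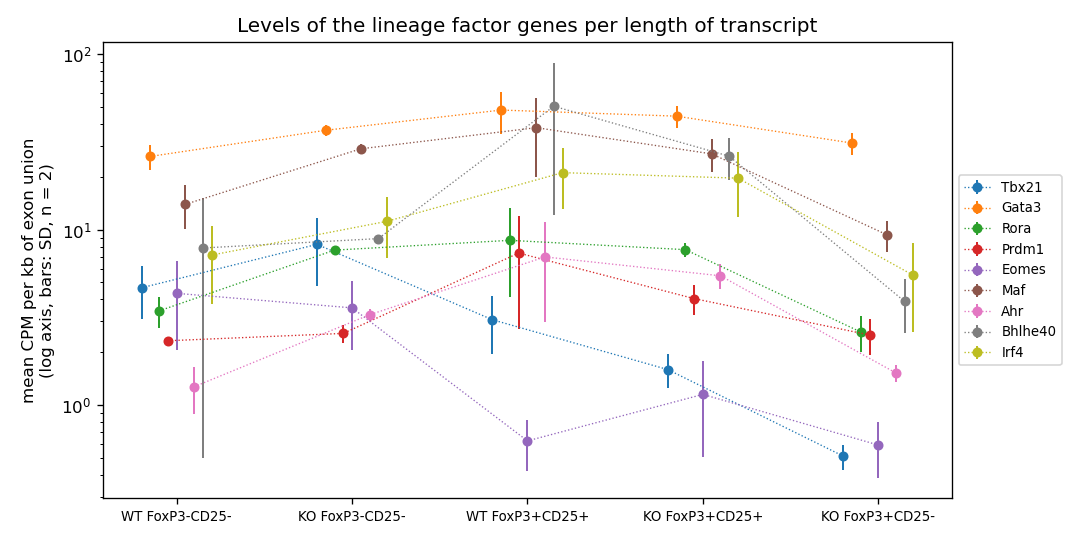
Mean level of each of the 9 genes (y axis, CPM per kb of exon union, log axis) in the 5 sorted groups (x axis); bars are the SD over 2 libraries and dotted lines join the same gene. *Gata3* and *Maf* stay near the top, while *Tbx21* and *Eomes* fall below 1 CPM per kb in KO FoxP3+CD25- cells.

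**Figure D2:**
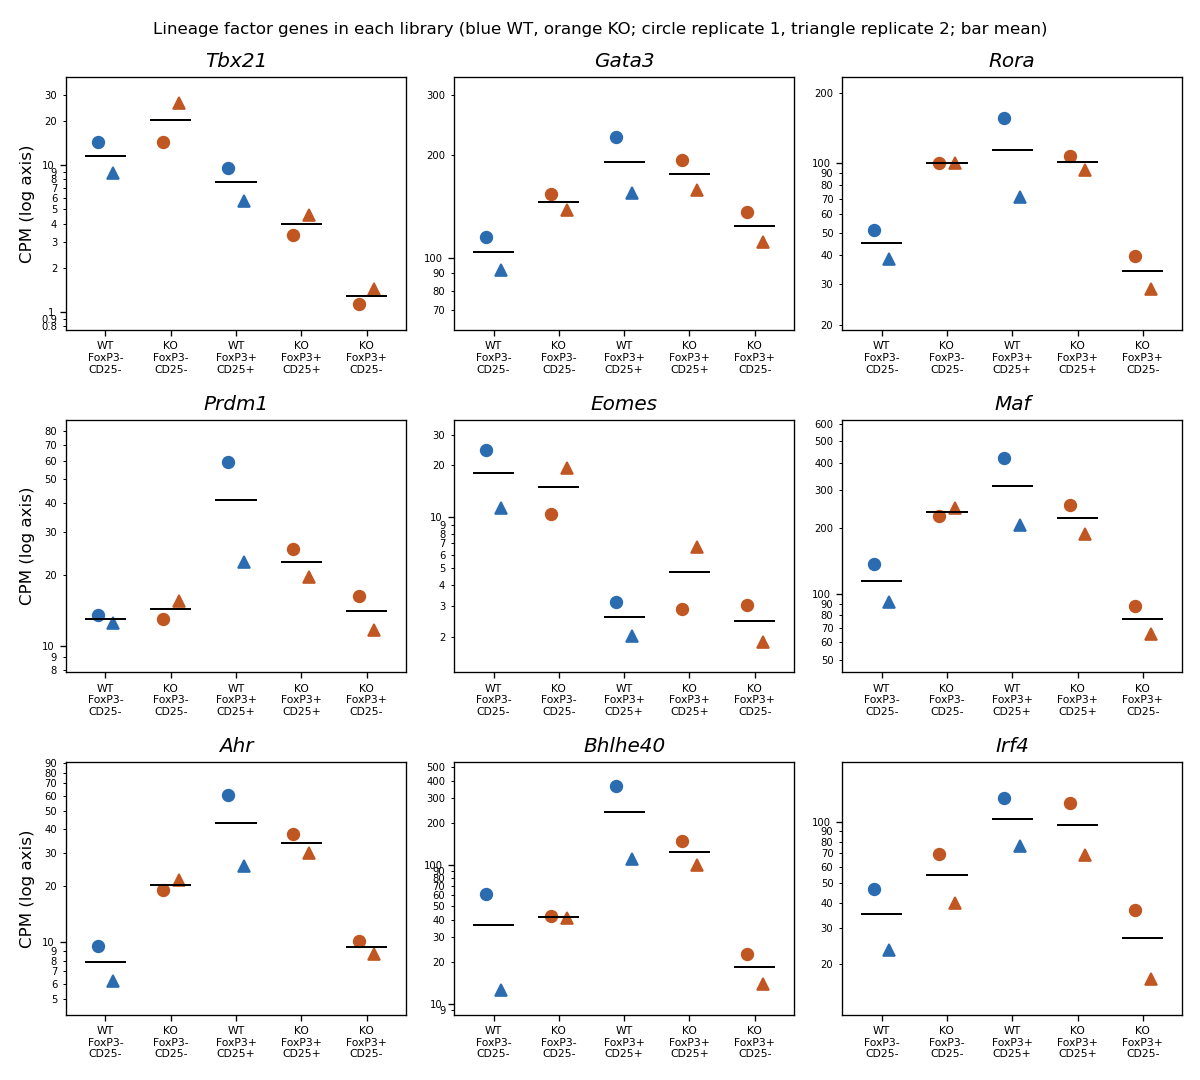
CPM of each gene (y axis, log axis, 1 panel a gene) in each of the 10 libraries by sorted group (x axis), with WT in blue, KO in orange, replicate 1 as circles, replicate 2 as triangles and the group mean as a bar. The KO FoxP3+CD25- libraries lie lowest for *Tbx21* and *Maf* and, in their means, for *Rora*, *Eomes*, *Bhlhe40* and *Irf4*, and WT replicate 1 lies above WT replicate 2 in every panel.

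*Tbx21*, the Th1 factor, lies at chr11:97098071-97115331 on the minus strand (GRCm38). It had 14.4 and 26.6 CPM in KO FoxP3-CD25-, 14.3 and 8.87 in WT FoxP3-CD25-, 9.60 and 5.67 in WT FoxP3+CD25+, 3.36 and 4.59 in KO FoxP3+CD25+ and 1.13 and 1.42 in KO FoxP3+CD25- cells. The FoxP3-CD25- libraries were thus the high end and both KO FoxP3+ groups the low end, without overlap between the KO groups. The WT populations overlapped each other. The lowest values rest on few reads, since the KO FoxP3+CD25- libraries held 7 and 13 counts of *Tbx21*, above the floor of 3. *Eomes*, the other T-box factor and a driver of cytotoxic and memory programmes, lies at chr9:118478212-118486132 on the plus strand. It had 24.7 and 11.4 CPM in WT and 10.4 and 19.4 CPM in KO FoxP3-CD25- cells. In the FoxP3+ groups it had 3.20 and 2.01 CPM in WT FoxP3+CD25+, 2.90 and 6.68 in KO FoxP3+CD25+ and 3.07 and 1.86 in KO FoxP3+CD25- cells. All 4 FoxP3-CD25- libraries were above all 6 FoxP3+ libraries, and within each side the groups overlapped with their neighbours. In bulk libraries such as these, fewer cells that express a gene and less of its RNA per cell cannot be told apart.

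The promoter windows of these 2 genes, the 250 bases before the RefSeq start (GRCm38.p6, written 5′ to 3′ on the strand of the gene), are shown because the pair differed most between FoxP3-CD25- and KO FoxP3+CD25- cells. Entries were found for 6 of the 9 genes (*Tbx21*, *Gata3*, *Rora*, *Prdm1*, *Eomes* and *Irf4*) and not for *Maf*, *Ahr* and *Bhlhe40*. Capitals mark matches, on either strand, to short letters bound by the families of the 9 factors: GGTGTGA for T-box factors, AGATAA for GATA factors, AGGTCA for RORs, AANTGAAA for IRFs, TGANTCA for AP-1, TGCTGA for MAF, GCGTG for AHR and CACGTG for BHLHE40. The letters of MAF and AP-1 can share bases.
Tbx21: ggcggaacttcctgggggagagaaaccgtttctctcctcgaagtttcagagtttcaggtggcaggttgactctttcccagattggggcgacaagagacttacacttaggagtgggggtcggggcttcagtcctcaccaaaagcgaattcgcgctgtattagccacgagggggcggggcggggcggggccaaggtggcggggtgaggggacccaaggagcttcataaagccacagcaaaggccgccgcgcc
Eomes: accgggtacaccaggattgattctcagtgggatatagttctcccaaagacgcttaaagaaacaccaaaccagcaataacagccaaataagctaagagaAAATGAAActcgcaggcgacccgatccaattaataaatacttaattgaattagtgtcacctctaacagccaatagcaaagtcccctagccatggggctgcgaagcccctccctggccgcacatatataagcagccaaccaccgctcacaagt
The first window lies at chr11:97115332-97115581 and held none of the 8 sets of letters. The other lies at chr9:118477939-118478188 and held the IRF letters, beginning 152 bases before the start, which 5.7% of 32851 windows of this length in RefSeq also held. Neither window held the T-box letters, found in 3.33% of all windows. Of the windows not printed, that of *Gata3* (chr2:9878601-9878850, minus strand) held the MAF letters 90 bases before the start, as did 16.1% of all windows. That of *Prdm1* (chr10:44458749-44458998, minus strand) held the AHR letters on the opposite strand, 109 and 77 bases before the start, and the AP-1 letters 48 bases before it, the latter in 6.75% of all windows. A match is a description of the sequence and no match says only that these letters are not in this window. Each window belongs to 1 RefSeq start, and counts per gene do not show which start the cells used. The windows of *Gata3* and *Prdm1* lie inside the spans given for these genes.

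*Gata3*, the Th2 factor that also sustains Tregs, lies at chr2:9857078-9890034 on the minus strand. It had 226 and 155 CPM in WT FoxP3+CD25+, 194 and 158 in KO FoxP3+CD25+, 154 and 138 in KO FoxP3-CD25-, 136 and 111 in KO FoxP3+CD25- and 115 and 92.2 in WT FoxP3-CD25- cells. Both FoxP3+CD25+ groups were at the top and overlapped, and WT FoxP3-CD25- cells overlapped KO FoxP3+CD25- cells at the bottom. The highest library was 2.46 times the lowest, the narrowest range of the 9 genes.

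*Rora*, which encodes the Th17-associated nuclear receptor RORα, lies at chr9:68653786-69388246 on the plus strand. It had 156 and 71.2 CPM in WT FoxP3+CD25+, 107 and 93.5 in KO FoxP3+CD25+, 99.9 in both KO FoxP3-CD25- libraries, 51.4 and 38.7 in WT FoxP3-CD25- and 39.6 and 28.7 in KO FoxP3+CD25- cells. The KO FoxP3-CD25- cells therefore stood with the FoxP3+CD25+ groups, and the KO FoxP3+CD25- cells stood with the WT FoxP3-CD25- cells. *Maf*, whose product c-MAF drives interleukin-10 and interleukin-21, lies at chr8:115682942-115707794 on the minus strand and had nearly the same order. Its values were 420 and 207 CPM in WT FoxP3+CD25+, 227 and 248 in KO FoxP3-CD25-, 256 and 189 in KO FoxP3+CD25+, 138 and 92.0 in WT FoxP3-CD25- and 88.1 and 65.8 in KO FoxP3+CD25- cells. The upper 3 groups overlapped, and KO FoxP3+CD25- cells were below every other library. The *Rora* window at chr9:68653536-68653785 is shown with the AHR letters in capitals, found on the opposite strand.
Rora: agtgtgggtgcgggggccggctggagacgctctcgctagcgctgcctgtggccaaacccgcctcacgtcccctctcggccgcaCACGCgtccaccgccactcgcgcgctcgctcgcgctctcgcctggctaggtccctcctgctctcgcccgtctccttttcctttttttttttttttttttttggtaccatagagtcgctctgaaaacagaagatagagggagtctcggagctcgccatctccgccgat
The match begins 167 bases before the start, and 28.2% of all windows held these letters.

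*Prdm1* (Blimp-1, a repressor of transcription) lies at chr10:44437177-44528501 on the minus strand. It had 59.4 and 22.7 CPM in WT FoxP3+CD25+ and 25.6 and 19.5 in KO FoxP3+CD25+ cells. The other 3 groups stood between 11.7 and 16.3 CPM and overlapped. *Ahr*, the ligand-activated receptor for dietary and microbial ligands, lies at chr12:35497974-35535038 on the minus strand. It had 60.7 and 25.5 CPM in WT FoxP3+CD25+, 37.5 and 29.7 in KO FoxP3+CD25+, 19.0 and 21.3 in KO FoxP3-CD25-, 10.2 and 8.64 in KO FoxP3+CD25- and 9.53 and 6.19 in WT FoxP3-CD25- cells. KO FoxP3-CD25- cells lay between the FoxP3+CD25+ groups and the other CD25- groups, overlapping neither.

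*Bhlhe40*, a repressor that shapes cytokine output after activation, lies at chr6:108660629-108666925 on the plus strand and varied most. It had 364 and 110 CPM in WT FoxP3+CD25+, 147 and 99.4 in KO FoxP3+CD25+, 42.5 and 41.1 in KO FoxP3-CD25-, 61.5 and 12.5 in WT FoxP3-CD25- and 22.8 and 13.9 in KO FoxP3+CD25- cells. All FoxP3+CD25+ libraries were above all CD25- libraries, but the WT replicates differed 3.32-fold in FoxP3+CD25+ and 4.92-fold in FoxP3-CD25- cells. *Irf4*, induced by T cell receptor signals and needed for effector Tregs, lies at chr13:30749226-30766976 on the plus strand. It had 131 and 75.7 CPM in WT FoxP3+CD25+, 124 and 68.9 in KO FoxP3+CD25+, 69.3 and 40.1 in KO FoxP3-CD25-, 46.8 and 23.4 in WT FoxP3-CD25- and 36.9 and 17.0 in KO FoxP3+CD25- cells. In each of the 5 groups replicate 1 was the higher for *Irf4*, by 1.73-fold to 2.17-fold, so neighbouring groups overlapped. The *Irf4* window at chr13:30748983-30749232 again holds the AHR letters on the opposite strand, beginning 80 bases before the start.
Irf4: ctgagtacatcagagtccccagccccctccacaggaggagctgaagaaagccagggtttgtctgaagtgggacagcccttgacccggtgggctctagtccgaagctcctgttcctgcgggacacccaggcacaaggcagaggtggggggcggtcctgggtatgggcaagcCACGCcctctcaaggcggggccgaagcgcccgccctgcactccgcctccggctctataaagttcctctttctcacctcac
The kit is not stated to keep strand, so reads of genes that overlap on the other strand cannot be told apart from those of 6 of the 9 genes. These overlaps cover 82 to 440 exonic bases and the longest, 440, is that of *Maf* with *Gm15655*.

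In WT mice, FoxP3+CD25+ cells differed from FoxP3-CD25- cells in 8 of the 9 genes (edgeR's quasi-likelihood test, false discovery rate, FDR, under 0.05). Of these, 7 rose, where 7.15% of all genes rose, and *Eomes* fell, where 3.75% of all genes fell. *Bhlhe40* rose by 2.66 on the log2 scale (SE 0.64, FDR = 0.0214) and *Ahr* by 2.43 (SE 0.36, FDR = 0.00135). *Prdm1* rose by 1.65 (SE 0.37, FDR = 0.0136), *Irf4* by 1.55 (SE 0.44, FDR = 0.0482), *Maf* by 1.45 (SE 0.30, FDR = 0.00994), *Rora* by 1.33 (SE 0.30, FDR = 0.0144) and *Gata3* by 0.88 (SE 0.19, FDR = 0.0123). The change of *Eomes* was -2.81 (SE 0.52, FDR = 0.00489). *Tbx21* had a value of -0.63 (SE 0.36, FDR = 0.371). The median of the 9 genes was 1.45, against -0.02 for all genes tested. This comparison leans on WT replicate 1. Without both of its libraries 3 genes were called (*Maf* at 1.18, *Ahr* at 2.05 and *Bhlhe40* at 3.14), and 2 were called without WT FoxP3+CD25+ replicate 1 alone or without WT FoxP3-CD25- replicate 2 alone. In these fits no gene changed direction.

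In KO mice the same comparison called 1 of the 9 genes: *Tbx21* fell by 2.37 (SE 0.40, FDR = 0.00553) from FoxP3-CD25- to FoxP3+CD25+ cells, where 2.81% of all genes fell. *Eomes* had -1.62 (SE 0.50, FDR = 0.0955), *Bhlhe40* 1.56 (SE 0.64, FDR = 0.248), *Irf4* 0.82 (SE 0.44, FDR = 0.434), *Ahr* 0.73 (SE 0.35, FDR = 0.352) and *Prdm1* 0.65 (SE 0.39, FDR = 0.512). *Gata3* at 0.27, *Rora* at 0.01 and *Maf* at -0.10 were near 0, and the values of *Rora* and *Maf* changed sign when 1 KO FoxP3+CD25+ library was left out. The median of the 9 genes was 0.27, and that of all genes 0.00. With the mouse as a block, a fit that compares populations within each mouse, 5 genes were called: *Ahr*, *Bhlhe40* and *Irf4* rose, where 6.49% of all genes rose, and *Tbx21* and *Eomes* fell, where 5.47% fell. Without KO FoxP3+CD25+ replicate 1 or KO FoxP3-CD25- replicate 2 and without the block, *Tbx21* was no longer called, with a value of at least 1.84 below 0 throughout the alternatives.

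Within single mice, the step from FoxP3-CD25- to FoxP3+CD25+ cells separated the genotypes for most of the genes. *Ahr* stepped up by 2.64 and 2.001 on the log2 scale in the WT mice and by 0.97 and 0.47 in the KO mice. For *Maf* the steps were 1.61 and 1.17 in WT and 0.17 and -0.39 in KO, and for *Rora* they were 1.60 and 0.88 in WT and 0.10 and -0.09 in KO. *Tbx21* stepped by -0.57 and -0.62 in WT and by -2.02 and -2.47 in KO. Both KO mice lay below both WT mice for 7 genes, as they did for 20.0% of all genes. *Eomes* was the opposite case, with -2.86 and -2.36 in WT and -1.76 and -1.50 in KO, and *Prdm1* overlapped, with 2.12 and 0.85 in WT and 0.96 and 0.32 in KO. Tested as a difference of effects, KO minus WT, the fit by group called none of the 9 genes and 0% of all genes (edgeR; 5 of the 9 genes and 685 of all genes had an unadjusted p under 0.05, and DESeq2 called 0 of the 9 and 23 of all). Without WT FoxP3+CD25+ replicate 2 this fit called 3 of the 9 and 112 of all genes (the 3 were *Rora*, *Maf* and *Ahr*. With the mouse as a block, 7 of the 9 genes had a negative difference that passed, where 0.899% of all genes did. For *Gata3*, *Rora*, *Maf*, *Ahr*, *Bhlhe40* and *Irf4* the upward step of WT was smaller or absent in KO, and for *Tbx21* the downward step was larger in KO. The differences ran from -0.60 for *Gata3* (SE 0.12, FDR = 0.0460) to -1.76 for *Tbx21* (SE 0.30, FDR = 0.0237), and that of *Maf* was -1.52 (SE 0.20, FDR = 0.00590). Either population can change such a step. KO against WT, the fit by group gave 1.35 (*Ahr*), 1.15 (*Rora*), 1.05 (*Maf*), 0.62 (*Irf4*) and 0.49 (*Gata3*) in FoxP3-CD25- cells. In FoxP3+CD25+ cells these were -0.36, -0.18, -0.50, -0.11 and -0.12. *Tbx21* had 0.82 and -0.92 in these populations and *Bhlhe40* 0.16 and -0.95, and none of these values was called. Leaving either WT mouse out of the blocked fit kept 1 WT mouse and 2 residual degrees of freedom. The spread between WT mice is then not measured, so the calls of these fits are not given. In the fit by group without the WT replicate 1 mouse, the differences were -1.74 for *Tbx21*, -1.59 for *Bhlhe40*, -1.32 for *Ahr* and -1.28 for *Maf*. They were -0.88 for *Rora*, -0.88 for *Irf4*, -0.49 for *Gata3*, -0.23 for *Prdm1* and 0.85 for *Eomes*. Leaving either KO mouse out of the blocked fit likewise kept 1 KO mouse, with 1 residual degree of freedom, and the calls are not given. The blocked calls could therefore not be checked with any 1 mouse left out.

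**Figure D3:**
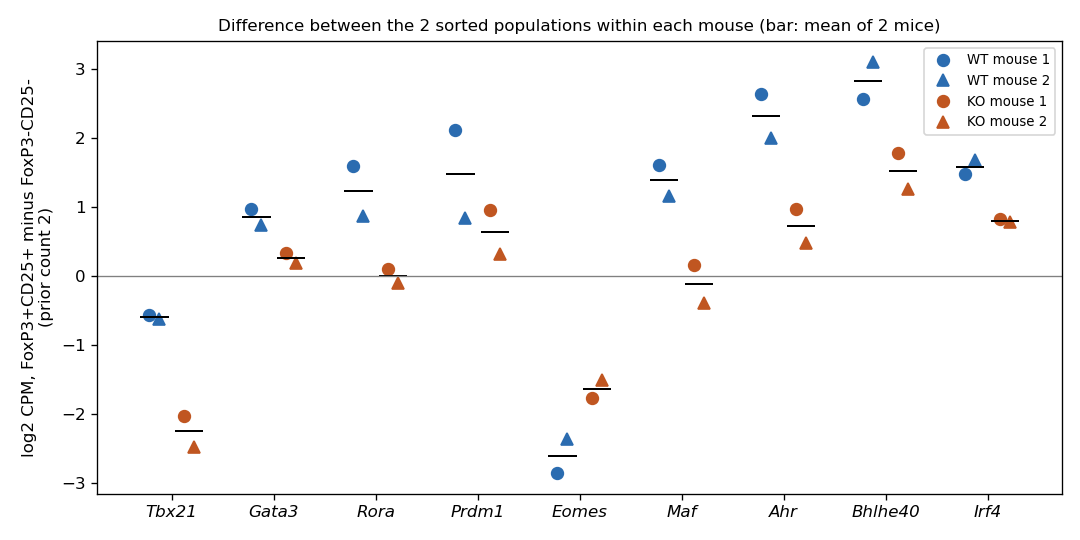
Difference in log2 CPM (prior count 2) between FoxP3+CD25+ and FoxP3-CD25- cells of the same mouse (y axis) for each gene (x axis), with WT mice in blue, KO mice in orange, replicate 1 as circles, replicate 2 as triangles and the mean of 2 mice as a bar. The KO points lie below the WT points for 7 genes, above them for *Eomes*, and overlap them for *Prdm1*.

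The KO FoxP3+CD25- cells, which express *Foxp3* without CD25, had the lowest mean of all groups for *Tbx21*, *Rora*, *Eomes*, *Maf*, *Bhlhe40* and *Irf4*. Against KO FoxP3+CD25+, 5 of the 9 genes fell, where 4.76% of all genes did. *Bhlhe40* had -2.77 (SE 0.69, FDR = 0.0353), *Irf4* -1.86 (SE 0.46, FDR = 0.0355), *Ahr* -1.84 (SE 0.38, FDR = 0.0131), *Rora* -1.57 (SE 0.31, FDR = 0.0109) and *Maf* -1.54 (SE 0.31, FDR = 0.0120). *Tbx21* had -1.61 (SE 0.62, FDR = 0.177), *Eomes* -1.04 (SE 0.66, FDR = 0.462), *Prdm1* -0.70 (SE 0.39, FDR = 0.389) and *Gata3* -0.51 (SE 0.19, FDR = 0.163). The median of the 9 genes was -1.57 and that of all genes 0.00. Within the KO mice the steps of *Maf* were -1.53 and -1.52, those of *Bhlhe40* -2.67 and -2.82 and those of *Irf4* -1.74 and -2.01, so the mice were close to each other, whereas *Eomes* gave 0.08 and -1.72. With the mouse as a block 7 genes were called, the added ones being *Gata3* at -0.51 (SE 0.09, FDR = 0.00230) and *Tbx21* at -1.65 (SE 0.36, FDR = 0.0109), where 9% of all genes fell. None of the 9 was called without KO FoxP3+CD25+ replicate 1 or without KO FoxP3+CD25- replicate 2, and 3 were without KO FoxP3+CD25- replicate 1. All 9 values stayed below 0 in each alternative fit.

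Against KO FoxP3-CD25- cells, KO FoxP3+CD25- cells were lower in 4 of the 9 genes, where 1.35% of all genes were lower. *Tbx21* had -3.98 (SE 0.49, FDR = 0.00277), *Eomes* -2.66 (SE 0.56, FDR = 0.0432), *Maf* -1.63 (SE 0.31, FDR = 0.0280) and *Rora* -1.56 (SE 0.31, FDR = 0.0336). *Bhlhe40* had -1.21 (SE 0.70, FDR = 0.673), *Ahr* -1.11 (SE 0.39, FDR = 0.278), *Irf4* -1.04 (SE 0.47, FDR = 0.489), *Gata3* -0.24 (SE 0.19, FDR = 0.838) and *Prdm1* -0.06 (SE 0.41, FDR = 0.985). The median was -1.21, against 0.01 for all genes. With the mouse as a block, *Ahr*, *Bhlhe40* and *Irf4* also fell, which made 7 of the 9 genes, where 3.85% of all genes fell. Leaving out any 1 of the 4 libraries left 0 to 2 genes called, with 2 without KO FoxP3-CD25- replicate 1, 1 without KO FoxP3+CD25- replicate 1 or KO FoxP3-CD25- replicate 2, and 0 without KO FoxP3+CD25- replicate 2.

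The comparisons with WT cells share the KO FoxP3+CD25- libraries with those above, so they are not independent of them. Against WT FoxP3+CD25+ cells 7 of the 9 genes fell, where 7.34% of all genes did: *Bhlhe40* at -3.71 (SE 0.70, FDR = 0.00567), *Tbx21* at -2.53 (SE 0.55, FDR = 0.0124), *Ahr* at -2.20 (SE 0.37, FDR = 0.00308), *Maf* at -2.03 (SE 0.31, FDR = 0.00170), *Irf4* at -1.97 (SE 0.46, FDR = 0.0190), *Rora* at -1.74 (SE 0.31, FDR = 0.00398) and *Prdm1* at -1.56 (SE 0.38, FDR = 0.0217). *Gata3* had -0.63 (SE 0.19, FDR = 0.0608) and *Eomes* -0.12 (SE 0.72, FDR = 0.948). Without the WT replicate 1 mouse 4 of these were called: *Rora* at -1.08, *Maf* at -1.44, *Ahr* at -1.45 and *Bhlhe40* at -2.61. Leaving out KO FoxP3+CD25- replicate 2 left 2. Against WT FoxP3-CD25- cells, the T-box genes alone fell, *Tbx21* at -3.15 (SE 0.50, FDR = 0.0207) and *Eomes* at -2.93 (SE 0.53, FDR = 0.0399), where 0.413% of all genes fell. The other 7 genes lay between -1.05 for *Bhlhe40* (SE 0.68, FDR = 0.814) and 0.25 for *Gata3* (SE 0.19, FDR = 0.876). Without the WT replicate 1 mouse none of the 9 was called (*Tbx21* at -2.75, FDR = 0.155, and *Eomes* at -2.25, FDR = 0.256), and likewise without either KO FoxP3+CD25- library.

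**Figure D4:**
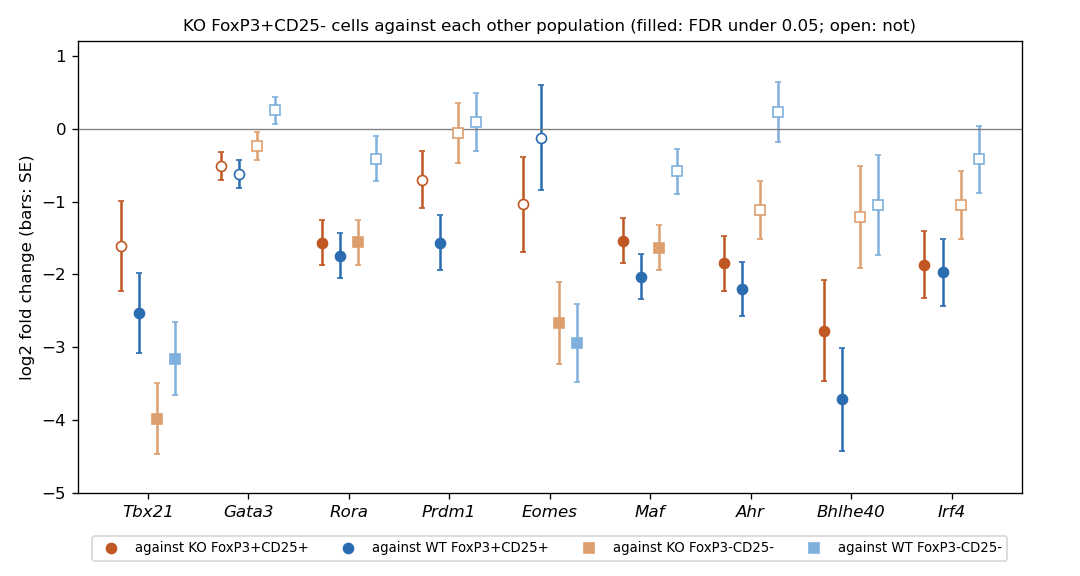
Log2 fold change (y axis, bars are SE) of each gene (x axis) in KO FoxP3+CD25- cells against the 4 other populations, circles for FoxP3+CD25+ and squares for FoxP3-CD25- cells, orange for KO and blue for WT; filled symbols passed FDR 0.05. *Tbx21* and *Eomes* are farthest below the FoxP3-CD25- cells, and *Bhlhe40*, *Ahr*, *Irf4* and *Maf* are farther below the FoxP3+CD25+ cells than below the WT FoxP3-CD25- cells.

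Between genotypes within a population, none of the 9 genes was called in the fit by group. In FoxP3+CD25+ cells, KO against WT, 0.00725% of all genes were called. There edgeR gave 1 of the 9 genes, *Prdm1*, an unadjusted p under 0.05, as 592 of all 13796 genes had, and DESeq2 called 0 of the 9 and 5 of all. The estimates lay between -0.95 for *Bhlhe40* and 0.92 for *Eomes*. The 95% interval was -0.53 to 0.30 for *Gata3* and -0.82 to 0.47 for *Rora*, so a 2-fold difference lies outside both. A 2-fold difference lies inside the intervals of all the other genes. These were -2.28 to 0.39 for *Bhlhe40*, -1.91 to 0.07 for *Tbx21*, -1.66 to -0.07 for *Prdm1* and -0.49 to 2.32 for *Eomes*. For *Maf* the interval was -1.15 to 0.16, for *Ahr* -1.08 to 0.37 and for *Irf4* -1.05 to 0.84. Without the WT replicate 1 mouse the values of *Gata3*, *Rora*, *Maf*, *Ahr*, *Bhlhe40* and *Irf4* turned from negative to positive, and stayed at or under 0.50. In FoxP3-CD25- cells, KO against WT, 0.145% of all genes were called. There 5 of the 9, and 1106 of all 13796 genes, had an unadjusted p under 0.05 in edgeR, the 5 all with higher values in KO: *Ahr* at 1.35 (SE 0.38, FDR = 0.285), *Rora* at 1.15 (SE 0.30, FDR = 0.239), *Maf* at 1.05 (SE 0.30, FDR = 0.296), *Tbx21* at 0.82 (SE 0.33, FDR = 0.543) and *Gata3* at 0.49 (SE 0.19, FDR = 0.515). DESeq2 called 2 of them, *Rora* (FDR = 0.00495) and *Ahr* (FDR = 0.0167), among 103 of all genes. With the replicate number as a block, which pairs no mice across genotypes, edgeR called 3 of the 9 as higher, where 0.544% of all genes were higher. These were *Irf4* at 0.66 (FDR = 0.0313), *Rora* at 1.18 (FDR = 0.0404) and *Maf* at 1.10 (FDR = 0.0404). Without the WT replicate 1 mouse none of the 9 was called in edgeR, with *Ahr* at 1.72 (FDR = 0.0667), *Rora* at 1.38 (FDR = 0.0616), *Maf* at 1.38 (FDR = 0.0719), *Tbx21* at 1.24 (FDR = 0.326) and *Gata3* at 0.68 (FDR = 0.231). The median of the 9 genes was 0.62, against 0.00 for all genes.

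Of the markers of other cell types that use T-box factors, those of NK cells summed higher in the FoxP3-CD25- libraries of both genotypes. *Zbtb16* was higher in the KO FoxP3-CD25- libraries only, and the CD8 T cell markers were not higher. *Tbx21* in KO mice and *Eomes* in both genotypes also had higher levels in FoxP3-CD25- cells. The difference of *Eomes* from KO FoxP3+CD25+ cells was not called (edgeR, FDR = 0.0955). The 4 markers of NK cells (*Ncr1*, *Klrb1c*, *Klrk1* and *Klre1*) summed to 2.82 to 4.33 CPM in WT and 3.80 to 8.43 CPM in KO FoxP3-CD25- cells, and to 0.128 to 1.37 CPM in the FoxP3+ groups. *Zbtb16*, which marks NKT cells, had 1.32 and 2.63 CPM in KO FoxP3-CD25- cells and at most 0.248 CPM elsewhere. *Ncr1* itself was at or below 0.305 CPM in every library. *Cd8b1* and *Cd8a* together had 9.38 to 16.6 CPM in all groups, and most of this was *Cd8b1*, with group means of 10.3 to 13.3 CPM. *Cd8a* had means of 2.23 ± 2.71 CPM (SD, n = 2) in WT and 1.57 ± 1.29 in KO FoxP3-CD25- cells. Its means were 0.748 CPM in WT FoxP3+CD25+, 1.67 ± 2.17 in KO FoxP3+CD25+ and 0.730 in KO FoxP3+CD25- cells. Of the B cell markers, *Cd79b* had means of 16.9 and 14.5 CPM in WT and KO FoxP3+CD25+ and 1.12 to 4.14 CPM elsewhere, whereas *Ms4a1* was at most 0.763 CPM. The summed markers were 0 to 1.06 CPM for plasma cells, 0.875 to 7.04 CPM for dendritic cells and 13.9 to 21.3 CPM for macrophages and monocytes. The part of such cells in the values of the 9 genes was not tested. CD4 T cell markers (*Cd3e*, *Cd3g*, *Cd3d*, *Cd4* and *Cd5*) were high in all libraries, summing to 2482 to 3021 CPM.

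The genes that these factors act with moved as follows. Of 14 genes of the Th1 programme, 13 were tested, and in KO FoxP3+CD25- against KO FoxP3-CD25- cells 4 fell and none rose: *Ifng*, the Th1 cytokine, at -5.32 (SE 0.50, FDR = 0.000604), its chemokine receptor companion *Cxcr3* at -3.34 (SE 0.40, FDR = 0.00245), the granule gene *Nkg7* at -3.73 (SE 0.59, FDR = 0.0106) and the interleukin-18 receptor chain *Il18rap* at -2.85 (SE 0.60, FDR = 0.0424). The median of the 13 was -1.19, and that of all genes 0.01, with 1.35% of all genes lower. The mean of *Ifng* was 26.7 ± 0.549 CPM (SD, n = 2) among KO FoxP3-CD25- cells and 0.678 ± 0.185 CPM (SD, n = 2) among KO FoxP3+CD25- cells. In KO FoxP3+CD25+ against KO FoxP3-CD25- cells 6 fell, where 2.81% of all genes fell, among them *Ifng* at -2.40 (SE 0.35, FDR = 0.00235) and *Cxcr3* at -2.11 (SE 0.36, FDR = 0.00586). In WT 4 fell, where 3.75% of all genes fell, with *Ifng* at -1.18 (SE 0.33, FDR = 0.0401). Without the WT replicate 1 mouse 1 of the 13 fell, and *Ifng* was at -0.58 (FDR = 0.366).

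Of 12 genes of the Th2 programme 10 were tested. In WT FoxP3+CD25+ cells 5 rose, where 7.15% of all genes rose, and the median of the 10 was 1.08 against -0.02 for all genes. Among the 5 were the chemokine receptor *Ccr8*, up by 3.90 (SE 0.39, FDR = 0.000111), and *Il1rl1*, the interleukin-33 receptor, up by 5.26 (SE 0.60, FDR = 0.000272). Both are also genes of effector Tregs, and 5 genes were called without the WT replicate 1 mouse as well. *Il4* was at most 1.58 CPM in any library, and *Il5* and *Il13* at most 0.219 and 0.305 CPM. In KO FoxP3+CD25- against KO FoxP3+CD25+ cells 5 fell and 1 rose, with *Ccr8* at -3.56 (SE 0.41, FDR = 0.000487). Of all 13796 genes, 4.76% fell there and 311 rose. Of 11 genes of the Th17 programme 8 were tested. In WT FoxP3+CD25+ cells 2 rose and 1 fell, where 7.15% of all genes rose and 3.75% fell, and the median of the 8 was 0.37. *Ccr6*, a Th17 and Treg chemokine receptor, rose by 3.45 (SE 0.33, FDR = 9.15e-05), and *Il21*, a cytokine of Th17 and follicular helper cells, fell by 4.40 (SE 0.45, FDR = 0.000128). Leaving out WT replicate 1 gave 1 that rose and 1 that fell. *Il17a* was at most 0.331 CPM in any library.

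Of 24 effector Treg genes, all tested, 20 rose in WT FoxP3+CD25+ cells, where 7.15% of all genes rose, with a median of 2.97 against -0.02 for all genes. *Tnfrsf9*, a costimulatory receptor of activated Tregs, rose by 3.74 (SE 0.16, FDR = 4.35e-07) and *Ikzf2*, which encodes Helios, by 4.09 (SE 0.21, FDR = 1.55e-06). With WT replicate 1 left out 19 rose, with a median of 3.32. In KO 16 rose and 1 fell, with a median of 2.05, where 486 of all 13796 genes rose and 2.81% fell. In KO FoxP3+CD25- against KO FoxP3+CD25+ cells 22 of the 24 fell, where 4.76% of all genes fell, with a median of -3.10. *Tnfrsf9* was at -3.46 (SE 0.16, FDR = 2.03e-06) and *Cd44*, which marks antigen-experienced T cells, at -2.80 (SE 0.22, FDR = 6.29e-05). *Cd44* had a mean of 17.0 CPM in KO FoxP3+CD25- cells and means of 92.5 to 174 CPM in the other 4 groups. Against KO FoxP3-CD25- cells 6 of the 24 fell, where 1.35% of all genes fell, with *Cd44* at -3.17 (SE 0.22, FDR = 0.000160). Of 14 genes of resting T cells, 6 rose in KO FoxP3+CD25- against KO FoxP3+CD25+ cells and none fell, where 311 of all 13796 genes rose. Among the 6 were *Lef1*, up by 1.25 (SE 0.15, FDR = 0.000562), and *Tcf7*, up by 0.93 (SE 0.12, FDR = 0.000806). Many of the effector Treg genes are known Treg genes, so that list is not independent of the sort for *Foxp3* and CD25.

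Of 30 genes of partners and antagonists of the 9 factors 26 were tested, and in WT FoxP3+CD25+ cells 6 rose and 4 fell, with a median of 0.11. Of all genes 7.15% rose and 3.75% fell there. With WT replicate 1 left out 4 rose and 3 fell. In both fits *Foxp3*, on which the cells were sorted, is counted among the genes that rose. Its rise was 5.19 (SE 0.26, FDR = 1.55e-06) with all libraries and is set by the sort. *Irf8*, a relative of *Irf4*, rose by 1.77 (SE 0.24, FDR = 0.000818) and *Ikzf1*, which encodes Ikaros, fell by 0.79 (SE 0.11, FDR = 0.000729). *Batf*, the AP-1 partner of IRF4, fell by 0.80 (SE 0.14, FDR = 0.00528) in KO FoxP3+CD25- against KO FoxP3+CD25+ cells. *Arnt*, the partner through which AHR binds DNA, stood at 99.4 to 120 CPM in all libraries. Of 8 target genes of AHR only *Tiparp* and *Gpr15* passed the filter. *Gpr15*, a homing receptor of Tregs, rose by 3.10 (SE 0.64, FDR = 0.00899) in WT FoxP3+CD25+ cells and by 2.63 (FDR = 0.0418) without the WT replicate 1 mouse, and *Tiparp* rose by 0.57 (SE 0.15, FDR = 0.0433) in KO FoxP3+CD25- against KO FoxP3+CD25+ cells, opposite to *Ahr*. *Cyp1a1* was at most 0.922 CPM.

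The genes whose log2 CPM followed each factor most closely over the 10 libraries are given as a description, since the 10 points share their groups and mice. *Tbx21* was followed by *Gpm6b* (Pearson's r = 0.9749), *Cxcr3* (0.9748) and *Ifng* (0.966), and *Eomes* by *Spp1* (0.932), *Gzmk* (0.932) and *Esm1* (0.931). *Rora* and *Maf* followed each other at 0.983, and *Rora* was closest to *Ccr4* (0.984). *Maf* was closest to *Gm15655* (0.992), the antisense gene that shares exonic bases with it. *Bhlhe40* was followed by *Galm* (0.985), *B4galt4* (0.980) and *Map6* (0.978), *Ahr* by *Gm6637* (0.984), *Pmaip1* (0.980) and *Ptprj* (0.976), and *Irf4* by *C1qtnf6* (0.972), *Trib1* (0.967) and *E2f3* (0.966). *Gata3* was followed by *Tbc1d14* (0.974), *Sla* (0.965) and *Ssh1* (0.963), and *Prdm1* by *Gna14* (0.976), *Kif13b* (0.976) and *Gfpt1* (0.973). Among the 9 genes, *Gata3* was most like *Ahr* (0.960), *Irf4* most like *Bhlhe40* (0.937) and *Eomes* most like *Tbx21* (0.776). *Eomes* was the least like of the 9 for each of the 7 genes outside the T-box pair, with r from -0.406 (*Prdm1*) to 0.0827 (*Rora*). Of the 27 closest genes, 19 were among the 50 closest by Spearman's rho as well.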

How the data were processed

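RNA-seq was made from 10 sorted spleen T cell libraries of 4 mice. The deposited files hold raw counts of reads per gene symbol, 1 file a library, made by the authors with HISAT2 2.1.0 on mm10 and HTSeq 0.11.1 (versions per the submitters' processing notes). The gene annotation and strand setting of the counting are not given in the sources used here. HTSeq's tally lines were left out, and 26.0 to 28.5% of a library's tallied reads fell on genes, 6094952 to 12410064 counts. Low counts carry more counting error, which the test models beside the dispersion between libraries (biological coefficient of variation 0.147).

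Counts were tested in edgeR 4.0.16 (R 4.3.3) with filterByExpr (minimum count 10), TMM factors and the quasi-likelihood F-test, 1 fit over the 5 groups with 5 residual degrees of freedom, and with Benjamini-Hochberg adjustment over all 13796 genes, called at FDR 0.05. The test was checked on counts simulated with the same dispersion for every gene, so the check does not cover genes of wider spread. Log2 CPM used a prior count of 2. Levels per kb used exon unions of GENCODE (GRCm38, the build of mm10), and promoter windows came from RefSeq (GRCm38.p6). Libraries with the same number and genotype in their titles were read as 1 mouse: their deviations from the group means correlated across genes (r = 0.303 in WT and 0.421 to 0.445 in KO, against -0.011 to 0.114 across genotypes). That pairing is implied by the titles, not stated. Replicates are single libraries, so p-values measure the spread between these samples. Alternatives were no filter, RLE factors, DESeq2 1.42.0, a replicate block, fits on only the compared libraries, and left-out libraries. The genes examined and the accompanying gene lists were chosen with earlier results of these data known. Genes most alike were the 3 with the highest Pearson's r for each of the 9, and list genes were named from the called ones with the 4 lowest p-values, while cytokine genes at low levels, *Arnt* and *Cyp1a1* were chosen after their values were seen. Values of some list and marker genes are not reported here.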

Additional observations from a re-analysis of the deposited data

Results flagged for a closer look

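The difference in the FoxP3+CD25+ effect between genotypes, KO minus WT, was tested directly with the mouse as a block, and 7 of the 9 genes passed an FDR of 0.05 (edgeR's quasi-likelihood test). The differences on the log2 scale were -1.76 for *Tbx21*, -1.70 for *Ahr*, -1.52 for *Maf*, -1.27 for *Bhlhe40*, -1.26 for *Rora*, -0.77 for *Irf4* and -0.60 for *Gata3*. For each of these genes both KO mice lay below both WT mice, as did 20.0% of all genes. The effect is a step between FoxP3-CD25- and FoxP3+CD25+ cells, so a change in either population can alter it. The fit by group, without the mouse, called none of the 9 genes. The blocked calls could not be checked with a mouse left out, since 1 mouse of its genotype then remains. The WT replicate 1 mouse differed in sex-linked genes from the other mice. Its part in the calls was not tested, since leaving it out keeps 1 WT mouse and gives no measure of the spread between WT mice. In the fit by group without it, the differences were -1.74 for *Tbx21*, -1.59 for *Bhlhe40*, -1.32 for *Ahr* and -1.28 for *Maf*. They were -0.88 for *Rora*, -0.88 for *Irf4* and -0.49 for *Gata3*.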

How the results depend on the processing

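RLE factors changed no call and no direction of the 9 genes. In KO FoxP3+CD25+ against KO FoxP3-CD25- cells the main fit called 1 of the 9 genes and 874 of all genes, no filter called 2 of the 9, DESeq2 2, a fit on only the compared libraries 3, and the replicate block, which pairs populations of 1 mouse, 5 (1649 of all). In KO FoxP3+CD25- against KO FoxP3-CD25- cells the main fit called 230 genes, no filter 411, DESeq2 353 and the block 786, with 7 of the 9 genes. With the block, 2634 instead of 1504 genes were called between the WT populations and 2090 instead of 967 between the KO FoxP3+ populations. The replicate number pairs no mice across genotypes. There the block called 4 genes in FoxP3+CD25+ cells (1 in the main fit), 108 (20) with 3 of the 9 in FoxP3-CD25- cells, and 217 (106) for KO FoxP3+CD25- against WT FoxP3-CD25- cells. The difference of effects had 148 calls with the block, 7 of the 9 genes among them, and 7 without a filter and 23 in DESeq2. In fits added after the data had been seen, the block without the WT replicate 1 mouse called 7 of the 9 and 377 genes, and without the WT replicate 2 mouse 9 and 1902. The block also called *Gata3* in KO FoxP3+CD25- against WT FoxP3+CD25+ cells (-0.61, FDR = 0.00223), and it changed no other call than those given here and with the results.

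Between genotypes in FoxP3-CD25- cells no filter called 2 of the 9 and 91 genes, DESeq2 2 and 103, and only the compared libraries 3 and 76. In FoxP3+CD25+ cells these fits called 5, 5 and 0 genes. Against WT FoxP3-CD25- cells, KO FoxP3+CD25- cells had 238 calls without a filter and 204 in DESeq2. Against WT FoxP3+CD25+ cells they had 913 calls with only the compared libraries, and 1548 in the main fit.

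With both WT replicate 1 libraries left out, 3 of the 9 and 706 genes were called between WT populations, 4 and 978 for KO FoxP3+CD25- against WT FoxP3+CD25+ cells, 0 and 35 against WT FoxP3-CD25- cells, and 3 and 11 of all genes between genotypes in FoxP3+CD25+ and FoxP3-CD25- cells. In FoxP3+CD25+ cells *Gata3* (0.18), *Rora* (0.50), *Maf* (0.10), *Ahr* (0.40), *Bhlhe40* (0.17) and *Irf4* (0.34) then turned positive in KO against WT, and *Eomes* (0.43) did in FoxP3-CD25- cells. For KO FoxP3+CD25- cells *Bhlhe40* (0.53) and *Irf4* (0.17) turned positive against WT FoxP3-CD25- and *Eomes* (0.23) against WT FoxP3+CD25+ cells.

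Leaving out 1 library at a time gave 2 to 8 of the 9 genes and 810 to 2102 genes between WT populations, 0 to 1 and 402 to 442 between KO FoxP3+CD25+ and FoxP3-CD25- cells, 0 to 2 and 30 to 161 for KO FoxP3+CD25- against KO FoxP3-CD25- cells, 0 to 4 and 411 to 569 against KO FoxP3+CD25+, 0 to 2 and 19 to 58 against WT FoxP3-CD25-, and 2 to 8 and 797 to 1880 against WT FoxP3+CD25+ cells. Between genotypes 1 to 2 genes were called in FoxP3+CD25+ and 0 to 4 in FoxP3-CD25- cells. The difference of effects had 0 to 3 of the 9 and 0 to 112 genes. The lone sample left in a group is assumed to vary like the others. These fits turned some signs. In KO against WT FoxP3+CD25+ cells *Gata3* ran from -0.36 to 0.18, *Rora* from -0.63 to 0.50, *Maf* from -0.92 to 0.10, *Ahr* from -0.85 to 0.39, *Bhlhe40* from -1.57 to 0.16 and *Irf4* from -0.58 to 0.34. In FoxP3-CD25- cells *Eomes* ran from -0.80 to 0.42 and *Bhlhe40* from -0.56 to 1.74. For KO FoxP3+CD25- against WT FoxP3-CD25- cells *Prdm1* ran from -0.15 to 0.33, *Ahr* from -0.029 to 0.60, *Bhlhe40* from -1.77 to 0.53 and *Irf4* from -1.05 to 0.17, against WT FoxP3+CD25+ cells *Eomes* from -0.47 to 0.25, and against KO FoxP3-CD25- cells *Prdm1* from -0.30 to 0.18. Between KO FoxP3+CD25+ and FoxP3-CD25- cells *Rora* ran from -0.095 to 0.10 and *Maf* from -0.33 to 0.10, and the difference of effects of *Bhlhe40* from -2.69 to 0.012. The cause of these shifts was not tested. Depth limits *Tbx21* and *Eomes* most.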
